A study of Mus musculus with 8 samples.

Results

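Lysosomes are the acid compartments in which cells break down proteins, glycans and lipids, and 43 genes for lysosomal enzymes, membrane proteins, proton pump subunits and transcription factors were followed here among the 25413 genes of the count table. They were taken by gene symbol from a list, and all 43 symbols were present. By role they comprised 7 membrane proteins and channels, 10 cathepsins, 12 glycosidases and sulfatases, 6 lipid hydrolases, saposins and sterol carriers, 2 other soluble proteins, 4 subunits of the proton pump and 2 transcription factors. Of these, 42 passed the filter on low counts that 13716 genes of the table passed.

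RNA with poly(A) tails was sequenced from spheroids, rounded aggregates of cells in culture, of the mouse mammary lines EpH4-AS and EpH4. The genotype of EpH4-AS is given in the labels as AS-transformed and that of EpH4 as WT. Spheroids of each line received PM2.5, fine airborne particulate matter, or were controls, called untreated here. This gave 4 groups of 2 libraries, namely EpH4-AS with PM2.5, untreated EpH4-AS, EpH4 with PM2.5 and untreated EpH4. Each line is a single line, so a difference between lines describes these 2 lines, and the labels used here give neither the dose nor the time of PM2.5. All 8 libraries carry the same batch label. The labels used here do not say that libraries of 1 group are separate cultures, and the p values below may therefore rest on technical spread alone. In bulk RNA, fewer cells of a kind and less RNA per cell cannot be told apart.

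Total counts lay between 15393256 and 18334052 in the 4 EpH4-AS libraries and between 24608176 and 27765982 in the 4 EpH4 libraries. Mitochondrially encoded genes took 0.219 to 0.302% of counts in EpH4-AS and 2.21 to 5.03% in EpH4, and reads outside exons made up 3.39 to 3.59% of gene reads in EpH4-AS and 11.3 to 12.5% in EpH4. Both lines are labelled as epithelial cells of the mammary gland. The summed level of 10 epithelial markers was nevertheless low, at 2.04 to 2.39 CPM, counts scaled to library size, in EpH4-AS with PM2.5, 2.29 to 2.59 in untreated EpH4-AS, 8.92 to 9.58 in EpH4 with PM2.5 and 3.58 to 3.71 in untreated EpH4. In EpH4 most of that sum was Krt14, at 8.31 and 8.88 CPM with PM2.5 and 3.31 and 3.02 CPM untreated. Of 3 epithelial markers tested between untreated lines, Krt7 and Epcam were higher in EpH4-AS and Krt14 was lower. Each of these passed the filter through 1 line alone, so it had to differ. In each group 9 of the 10 markers were under 1 CPM, while 9 fibroblast markers summed to between 4086 and 5115 CPM over the 8 libraries. Most of that sum in EpH4-AS was Vim, a gene that many cell types express, at 3507 to 4707 CPM in EpH4-AS and 2048 to 2390 CPM in EpH4. Of the more specific markers, Col1a1 was under 1 CPM and Thy1 at 0 counts in every EpH4-AS library, and Thy1 was also under 1 CPM in EpH4. No other fibroblast marker averaged under 1 CPM in EpH4-AS, and Pdgfra was at 46.3 to 60.2 CPM there and 270 to 363 CPM in EpH4. Of 8 tested between untreated lines, Col3a1, Lum and Vim were higher in EpH4-AS and the other 5 lower. Over all genes 43.6% were called higher and 45.7% lower. The 6 adipocyte markers summed to 258 to 325 CPM in EpH4-AS, mostly Pparg at 198 to 259 CPM, and to 1.56 to 4.18 CPM in EpH4, while Adipoq, Lep and Plin1 were each under 1 CPM in all 8 libraries. The 3 tested, Pparg, Fabp4 and Cidec, were each higher in untreated EpH4-AS. The log2 fold change was 4.27 ± 0.23 for Fabp4 and 10.98 ± 0.23 for Cidec. In untreated EpH4, 5 of the 6 averaged under 1 CPM, so these ratios rest on low EpH4 levels. Cidec passed the filter through EpH4-AS alone, so it had to be higher. The part of these differences in the results below was not tested.

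Enzymes of the lysosome are made in the endoplasmic reticulum, tagged with mannose 6-phosphate and sorted to an organelle kept acid by the V-type proton pump, where cathepsins cleave proteins and glycosidases, sulfatases and lipid hydrolases take apart glycans and lipids. TFEB and TFE3 are related transcription factors that bind the CLEAR element in promoters of lysosomal genes. In the mammary gland, lysosomal proteases are known for their activity during involution, and secreted cathepsins are known to cut extracellular matrix in tumours.

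The CLEAR element is a stretch of 10 bases with the core TCACGTGA, which reads the same on both strands, and the E-box CACGTG inside that core. All 3 forms were searched in RefSeq promoters of GRCm38.p6, from 250 bases before to 50 bases after each start, on both strands. Promoters were matched by symbol for 38 of the 43 genes. None of the 38 held the full 10-base form, which 0.326% of 32851 promoters held. The core was found for 6 of the 38 (15.8%), against 0.974% of all promoters, and the E-box, which every core match contains, for 13 (34.2%), against 7.15%. Shares of the 38 are per gene, with 43 promoters among them, and the others are per promoter, so the units differ. The windows around the core are shown because these 6 genes recur below with differing levels between lines, with the core in capitals, 5′ to 3′ on the strand of the gene.

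Ctsa, chr2:164833749-164833778, plus strand: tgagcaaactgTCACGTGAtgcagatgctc
Ctsa, chr2:164833766-164833795, plus strand: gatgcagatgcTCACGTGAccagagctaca
Ctsd, chr7:142387908-142387937, minus strand: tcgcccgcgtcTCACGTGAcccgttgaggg
Mcoln1, chr8:3500462-3500491, plus strand: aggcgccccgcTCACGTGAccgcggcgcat
Atp6v0d1, chr8:105566050-105566079, minus strand: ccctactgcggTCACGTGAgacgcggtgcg
Atp6v1a, chr16:44139373-44139402, minus strand: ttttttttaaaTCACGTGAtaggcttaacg
Gla, chrX:134601215-134601244, minus strand: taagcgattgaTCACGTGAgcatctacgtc
Gla, chrX:134601182-134601211, minus strand: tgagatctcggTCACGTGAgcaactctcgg

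Ctsa and Gla each carried the core at 2 places. A match of letters is a description of the window and not a measured binding site. Between untreated lines, Atp6v0d1, Ctsa and Gla were higher in EpH4-AS, and Atp6v1a, Ctsd and Mcoln1 were lower, so the 6 genes with the core divided into 3 in each direction, where 43.6% of all genes were called higher and 45.7% lower. With PM2.5, Gla rose in both lines and Ctsa fell in EpH4-AS, and the other 4 did not pass the test in either line.

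Together the 43 genes took a similar part of the counts in both lines, though each EpH4 library lay above each EpH4-AS library. Their share was 1.02 and 0.989% in EpH4-AS with PM2.5, 0.971 and 0.971% in untreated EpH4-AS, 1.05 and 1.15% in EpH4 with PM2.5 and 1.09 and 1.05% in untreated EpH4. The makeup of that share differed. Glycosidases and sulfatases held 0.228 to 0.244% of counts in EpH4-AS libraries and 0.0851 to 0.0921% in EpH4 libraries. Lipid hydrolases, saposins and sterol carriers held 0.201 to 0.219% in EpH4-AS and 0.327 to 0.364% in EpH4, and membrane proteins held 0.154 to 0.159% in EpH4-AS and 0.211 to 0.228% in EpH4. The ranges of the lines did not overlap for any of these 3 roles, nor for the proton pump and the transcription factors. The cathepsins overlapped, with 0.293 to 0.309% in EpH4-AS and 0.297 to 0.368% in EpH4. Of single genes, 94.5% did not overlap between untreated lines. Psap was the largest gene of the lipid role, averaging 1215 CPM in untreated EpH4-AS and 3012 CPM in untreated EpH4. Of the 6 genes of that role, 2 were higher in untreated EpH4-AS and 3 lower, where 43.6% of all genes were called higher and 45.7% lower.

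**Figure D1:**
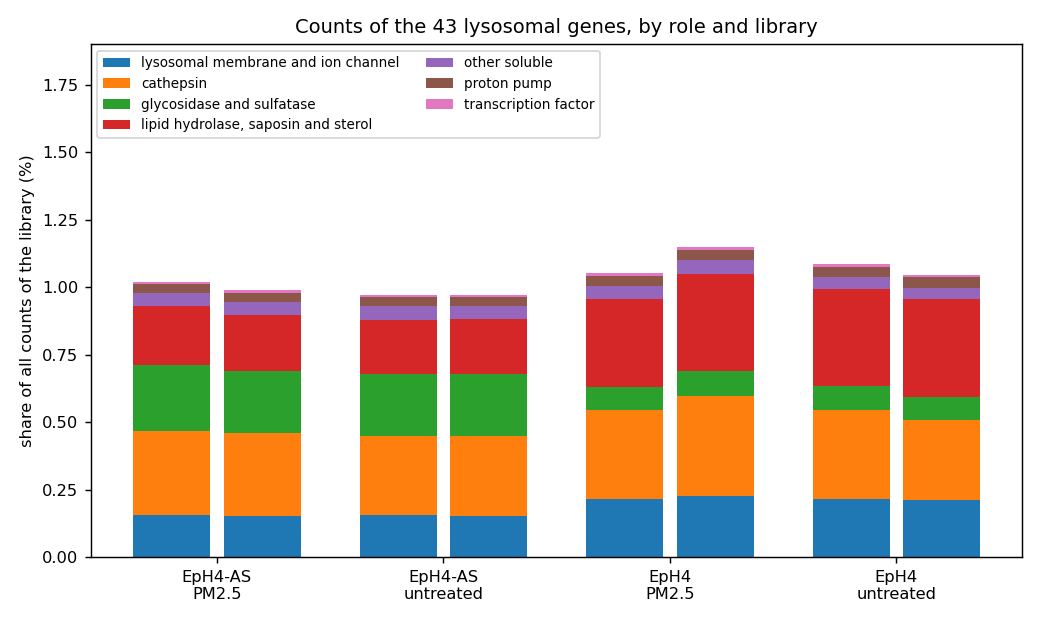
Share of all counts of a library (%, vertical axis) taken by the 43 lysosomal genes, stacked by role, with 1 bar for each library. Total height is near 1% in each library, while the band of glycosidases and sulfatases is taller in the EpH4-AS libraries (0.228 to 0.244%) than in the EpH4 libraries (0.0851 to 0.0921%).

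Levels of different genes were compared per exon length, in the RPKM of the authors. Ctsz, a cysteine carboxypeptidase also called cathepsin X, led the list in EpH4-AS with 583 and 567 RPKM with PM2.5 and 532 and 520 RPKM untreated. In EpH4 Ctsz reached 113 and 122 RPKM with PM2.5 and 105 and 103 RPKM untreated. Psap, the precursor of the saposins that help enzymes reach lipids, led the list in EpH4 with 805 and 911 RPKM with PM2.5 and 897 and 920 RPKM untreated. The aspartic protease Ctsd and the membrane protein Lamp1 stood close together in every group, between 261 and 316 RPKM for Ctsd and between 253 and 283 RPKM for Lamp1. At the other end stood Ctss, a cysteine cathepsin typical of antigen-presenting cells, which was the gene below the filter. It had counts of 0 and 1 in EpH4-AS with PM2.5, 0 and 1 in untreated EpH4-AS and 0 in each EpH4 library. Reads over the whole Ctss gene, introns included, numbered 60 and 66 in EpH4-AS with PM2.5 and 37 and 53 in untreated EpH4-AS, against 4 and 1 in EpH4 with PM2.5 and 5 and 2 in untreated EpH4, so nearly all reads at Ctss lay outside its exons.

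The first comparison set the untreated lines side by side. EpH4-AS had higher levels of most lysosomal glycosidases and of the cathepsins A, F, H, K and Z, and lower levels of every listed membrane protein, of the cathepsins B, D, L and O and of the sterol carrier Npc2. Of the 42 genes tested, 19 were higher in EpH4-AS, 20 were lower and 3 did not pass an adjusted p of 0.05 in the edgeR quasi-likelihood test with Benjamini-Hochberg adjustment over 13716 genes. Over all genes 89.2% were called, 43.6% higher and 45.7% lower, and the libraries of the lines did not overlap for 94.5%, so a call between these lines was the rule. The median log2 fold change was -0.05 for the 42 genes and also -0.05 for all genes, and giving Ctsf its lower bound leaves the median where it is. With PM2.5 on both sides the counts were again 19 higher and 20 lower, against a background of 89% called, 43.5% higher and 45.5% lower, with libraries that did not overlap for 94.3% of genes. The same 19 genes were higher and the same 19 lower in both settings. Gm2a was lower among untreated libraries, Lipa was lower among PM2.5 libraries, and the proton pump subunits Atp6v0a1 and Atp6v1h passed in neither.

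The contrast between lines was greatest for 3 genes nearly silent in EpH4. Hexa encodes the alpha subunit of beta-hexosaminidase, the enzyme deficient in Tay-Sachs disease, and lies at chr9:59446823-59472392 on the plus strand of GRCm39. It had 230 and 231 CPM in EpH4-AS with PM2.5 and 238 and 235 CPM in untreated EpH4-AS, whereas 3 counts in all were found in EpH4 with PM2.5 and 3 in untreated EpH4. The ratio of EpH4-AS over EpH4 was 4152 among untreated libraries, with an exact 95% counting interval of 1420 to 20140, and 3885 (1329 to 18840) with PM2.5. Ctsf, a cysteine cathepsin at chr19:4905158-4910946 on the plus strand of GRCm39, had 131 and 119 CPM in EpH4-AS with PM2.5 and 134 and 139 CPM in untreated EpH4-AS, and no count in any EpH4 library. Taken against a floor of 3 counts over the group, Ctsf was at least 2396-fold higher in untreated EpH4-AS and at least 2099-fold higher in EpH4-AS with PM2.5. Ctsh, an aminopeptidase among the cysteine cathepsins, had 29.99 and 31.8 CPM in EpH4-AS with PM2.5 and 24.9 and 29.3 CPM in untreated EpH4-AS. In EpH4 it had 9 counts in all with PM2.5 and 3 counts untreated, for a ratio of 474.8 (161.9 to 2307) among untreated libraries. These intervals and floors cover counting error alone. Hexa, Ctsf, Ctsh and Ctsk averaged under 10 counts in EpH4 and passed the filter through EpH4-AS alone, so they had to differ between the lines, and 4 of the 19 higher calls above are theirs.

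The 200 bases before the start of Hexa and Ctsf, at or near 0 in EpH4, are given for context, from RefSeq promoters of GRCm38.p6, plus strand, with CG pairs in capitals. In the 250 bases before the start Hexa held 6 CG pairs, an observed to expected ratio of 0.367, and Ctsf held 17, a ratio of 0.837. Over all promoters the same 250 bases had a median of 6 pairs and a median ratio of 0.374.

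Hexa, chr9:59539340-59539539: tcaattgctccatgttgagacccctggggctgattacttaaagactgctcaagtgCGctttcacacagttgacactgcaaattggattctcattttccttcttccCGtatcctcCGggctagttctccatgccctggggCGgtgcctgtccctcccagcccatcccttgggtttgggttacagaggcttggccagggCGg
Ctsf, chr19:4854965-4855164: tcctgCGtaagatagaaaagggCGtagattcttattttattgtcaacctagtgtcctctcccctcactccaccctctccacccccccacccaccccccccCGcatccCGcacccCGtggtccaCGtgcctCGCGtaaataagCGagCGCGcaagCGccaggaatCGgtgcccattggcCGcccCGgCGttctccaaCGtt

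**Figure D2:**
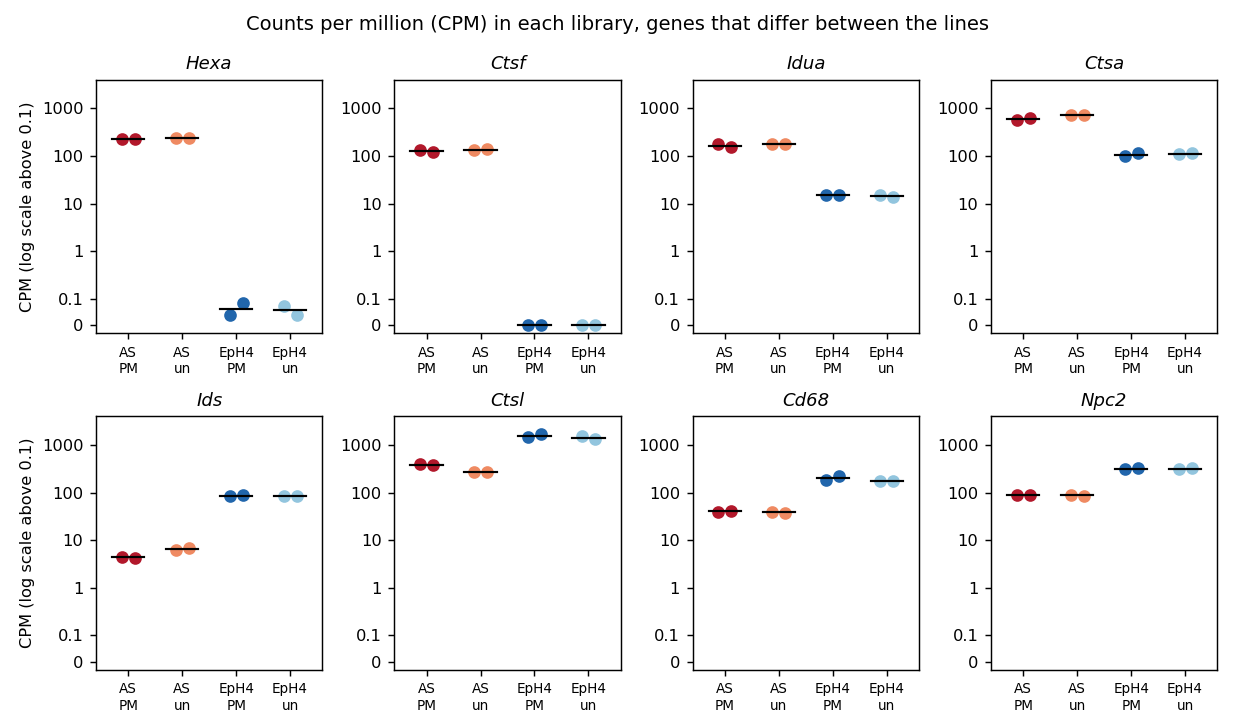
CPM (vertical axis, logarithmic above 0.1 and linear below) of 8 genes in each library, with EpH4-AS with PM2.5 (AS PM), untreated EpH4-AS (AS un), EpH4 with PM2.5 (EpH4 PM) and untreated EpH4 (EpH4 un) from left to right. Points are libraries and bars are means of 2 libraries. Hexa, Ctsf, Idua and Ctsa are high in EpH4-AS, with Ctsf at 0 in all EpH4 libraries, and Ids, Ctsl, Cd68 and Npc2 are high in EpH4.

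Among the glycosidases and sulfatases the untreated lines differed in both directions, with 9 of 12 genes higher in EpH4-AS and 3 lower. The 9 include Hexa, which had to be higher. Over all genes 43.6% were called higher and 45.7% lower. Idua, which removes iduronic acid from heparan and dermatan sulfate, had 175 and 156 CPM in EpH4-AS with PM2.5 and 180 and 180 CPM in untreated EpH4-AS, against 14.8 and 15.3 CPM in EpH4 with PM2.5 and 15.1 and 13.8 CPM in untreated EpH4. The groups of the lines lay far apart, and the log2 fold change was 3.64 ± 0.07 untreated (± standard error, adjusted p = 3.36e-15) and 3.46 ± 0.07 with PM2.5 (adjusted p = 5.51e-15, edgeR). Ids, the sulfatase that acts just before Idua on the same glycans, went the other way, with 4.49 and 4.29 CPM in EpH4-AS with PM2.5 and 6.38 and 6.96 CPM in untreated EpH4-AS, against 84.1 and 89.1 CPM in EpH4 with PM2.5 and 83.8 and 86.9 CPM in untreated EpH4. Its log2 fold change was -3.68 ± 0.08 untreated (adjusted p = 7.75e-15) and -4.30 ± 0.09 with PM2.5 (adjusted p = 3.3e-15, edgeR). Other enzymes of heparan sulfate breakdown likewise diverged, with Sgsh higher in EpH4-AS by a log2 fold change of 1.25 ± 0.07 and Naglu lower by -0.79 ± 0.05 among untreated libraries.

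Manba, the lysosomal beta-mannosidase, was the lowest in EpH4-AS relative to EpH4, with 0.467 and 1.14 CPM in EpH4-AS with PM2.5 and 0.783 and 1.202 CPM in untreated EpH4-AS, against 17.1 and 21.3 CPM in EpH4 with PM2.5 and 21.2 and 17.5 CPM in untreated EpH4. That is a log2 fold change of -4.29 ± 0.25 untreated (adjusted p = 3e-10) and -4.54 ± 0.25 with PM2.5 (adjusted p = 1.86e-10, edgeR). The remaining glycosidases were all higher in untreated EpH4-AS, with log2 fold changes of 2.67 for the beta-glucuronidase Gusb, 1.81 for the alpha-galactosidase Gla, 1.71 for the beta-galactosidase Glb1, 1.53 for the alpha-mannosidase Man2b1, 1.39 for the alpha-glucosidase Gaa and 1.35 for the sialidase Neu1.

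Cathepsin A, a serine carboxypeptidase, forms a complex that protects Glb1 and Neu1, and all 3 genes of that complex were higher in EpH4-AS. Ctsa had 563 and 632 CPM in EpH4-AS with PM2.5 and 713 and 730 CPM in untreated EpH4-AS, against 98.1 and 113 CPM in EpH4 with PM2.5 and 111 and 113 CPM in untreated EpH4. The log2 fold change was 2.69 ± 0.07 untreated (adjusted p = 6.17e-14) and 2.502 ± 0.07 with PM2.5 (adjusted p = 1.29e-13, edgeR). Ctsk, a collagen-cleaving cathepsin best known from osteoclasts, was low in both lines, at 2.41 to 2.61 CPM in EpH4-AS and 0.182 to 0.411 CPM in EpH4. Ctsl, Ctsb and Ctsd, proteases found in most cell types, were lower in EpH4-AS. For Ctsl the libraries gave 396 and 381 CPM in EpH4-AS with PM2.5 and 276 and 268 CPM in untreated EpH4-AS, against 1487 and 1692 CPM in EpH4 with PM2.5 and 1546 and 1316 CPM in untreated EpH4. Its log2 fold change was -2.40 ± 0.08 untreated (adjusted p = 6.98e-13) and -2.03 ± 0.08 with PM2.5 (adjusted p = 3.65e-12, edgeR). Among untreated libraries Ctsb differed by -1.06 ± 0.07, Ctsd by -0.38 ± 0.06 and Ctso, a little-studied cysteine cathepsin, by -2.497 ± 0.11 on the log2 scale. Of the 9 cathepsins tested, 5 were higher in EpH4-AS and 4 were lower, and with PM2.5 the same counts were found. Over all genes 43.6% were called higher and 45.7% lower between untreated lines. Of the higher cathepsins, Ctsf, Ctsh and Ctsk passed the filter through EpH4-AS alone, so they had to be higher.

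All 7 membrane proteins were lower in EpH4-AS, both untreated and with PM2.5, where 45.7% and 45.5% of all genes were called lower. Cd68, a mucin-like member of the LAMP family that also serves as a macrophage marker, had 39.5 and 41.2 CPM in EpH4-AS with PM2.5 and 39.2 and 37.5 CPM in untreated EpH4-AS, against 188 and 219 CPM in EpH4 with PM2.5 and 172 and 172 CPM in untreated EpH4. The log2 fold change was -2.16 ± 0.07 untreated (adjusted p = 6.87e-13) and -2.33 ± 0.07 with PM2.5 (adjusted p = 2.64e-13, edgeR). A list of 14 other macrophage markers summed to 11.997 to 13.89 CPM in EpH4-AS with PM2.5, 17.2 to 18.1 CPM in untreated EpH4-AS, 63.8 to 79.9 CPM in EpH4 with PM2.5 and 57.6 to 70.0 CPM in untreated EpH4. In EpH4 most of that sum was Cd14, at 53.5 to 72.3 CPM. In EpH4-AS most of it was Mpeg1, which ran opposite to Cd68, with 11.1 and 9.77 CPM in EpH4-AS with PM2.5 and 15.2 and 15.6 CPM in untreated EpH4-AS, against 0.762 and 1.11 CPM in EpH4 with PM2.5 and 0.291 and 0.398 CPM in untreated EpH4. Of the 4 markers tested between untreated lines, Cd14, Lyz2 and Adgre1 were lower in EpH4-AS, as Cd68 was, and Mpeg1 alone was higher. Over all genes 45.7% were called lower. Adgre1 had 0 counts in untreated EpH4-AS and passed the filter through EpH4 alone, so it had to be lower. Ptprc, Csf1r and Adgre1, all on this list, were each under 1 CPM in all 8 libraries. The part of the listed markers in the Cd68 difference was not tested. Scarb2, the receptor that carries glucocerebrosidase to the lysosome, differed by -1.49 ± 0.06 and the cation channel Mcoln1 by -1.003 ± 0.07 on the log2 scale among untreated libraries. Smaller differences were found for the tetraspanin Cd63 (-0.55 ± 0.05), for Lamp2 (-0.53 ± 0.05), for the cholesterol exporter Npc1 (-0.41 ± 0.06) and for Lamp1 (-0.16 ± 0.06, adjusted p = 0.0169, edgeR). The Lamp1 call was lost when counts were scaled to library totals (adjusted p = 0.0839) and without either untreated EpH4-AS library (adjusted p = 0.0583 without replicate 1 and 0.0833 without replicate 2). With PM2.5 on both sides the Lamp1 difference was -0.15 (adjusted p = 0.024), and it did not pass when any 1 of the 4 EpH4-AS libraries or EpH4 PM2.5 replicate 2 was left out (adjusted p from 0.067 to 0.22).

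Among the lipid-handling proteins, Npc2, which passes cholesterol to Npc1, had 89.4 and 90.3 CPM in EpH4-AS with PM2.5 and 88.2 and 87.0 CPM in untreated EpH4-AS, against 311 and 325 CPM in EpH4 with PM2.5 and 308 and 327 CPM in untreated EpH4. Its log2 fold change was -1.86 ± 0.05 untreated (adjusted p = 1.16e-13) and -1.82 ± 0.05 with PM2.5 (adjusted p = 1.36e-13, edgeR). Psap differed by -1.31 ± 0.07 among untreated libraries, while the acid ceramidase Asah1 (1.57 ± 0.06) and the thioesterase Ppt1 (1.89 ± 0.08) were higher in EpH4-AS. The acid lipase Lipa, with 108 and 104 CPM in untreated EpH4-AS and 118 and 100 CPM in untreated EpH4, overlapped between the untreated lines. With PM2.5, Lipa differed by -0.17 ± 0.07 on the log2 scale (adjusted p = 0.0274, edgeR), which did not pass when any 1 of the EpH4-AS libraries or EpH4 PM2.5 replicate 2 was left out (adjusted p from 0.0541 to 0.149). Of the other soluble proteins, the peptidase Tpp1 was higher in untreated EpH4-AS (1.16 ± 0.06) and progranulin, Grn, was lower (-0.34 ± 0.07, adjusted p = 0.000202, edgeR).

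Of the 4 proton pump subunits, 1 was higher and 1 lower in untreated EpH4-AS, where 43.6% of all genes were called higher and 45.7% lower. Atp6v1a, the catalytic subunit, was lower in untreated EpH4-AS by a log2 fold change of -0.96 ± 0.05, and Atp6v0d1 was higher by 0.15 ± 0.05, a call lost with the DESeq2 Wald test (adjusted p = 0.0655), without untreated EpH4-AS replicate 1 (0.218) and without untreated EpH4 replicate 2 (0.0648). Both transcription factors differed, in opposite directions. Tfeb had 18.9 and 17.8 CPM in EpH4-AS with PM2.5 and 19.2 and 17.7 CPM in untreated EpH4-AS, against 12.04 and 16.03 CPM in EpH4 with PM2.5 and 12.5 and 11.3 CPM in untreated EpH4. Tfe3 had 68.4 and 72.7 CPM in EpH4-AS with PM2.5 and 58.5 and 62.7 CPM in untreated EpH4-AS, against 86.7 and 87.5 CPM in EpH4 with PM2.5 and 84.7 and 84.3 CPM in untreated EpH4. Among untreated libraries the log2 fold change was 0.63 ± 0.13 for Tfeb (adjusted p = 0.000285) and -0.48 ± 0.06 for Tfe3 (adjusted p = 1.61e-06, edgeR). With PM2.5 on both sides the Tfeb difference was 0.39 ± 0.12 (adjusted p = 0.00824), and it was 0.19 (adjusted p = 0.138) without EpH4 PM2.5 replicate 1.

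**Figure D3:**
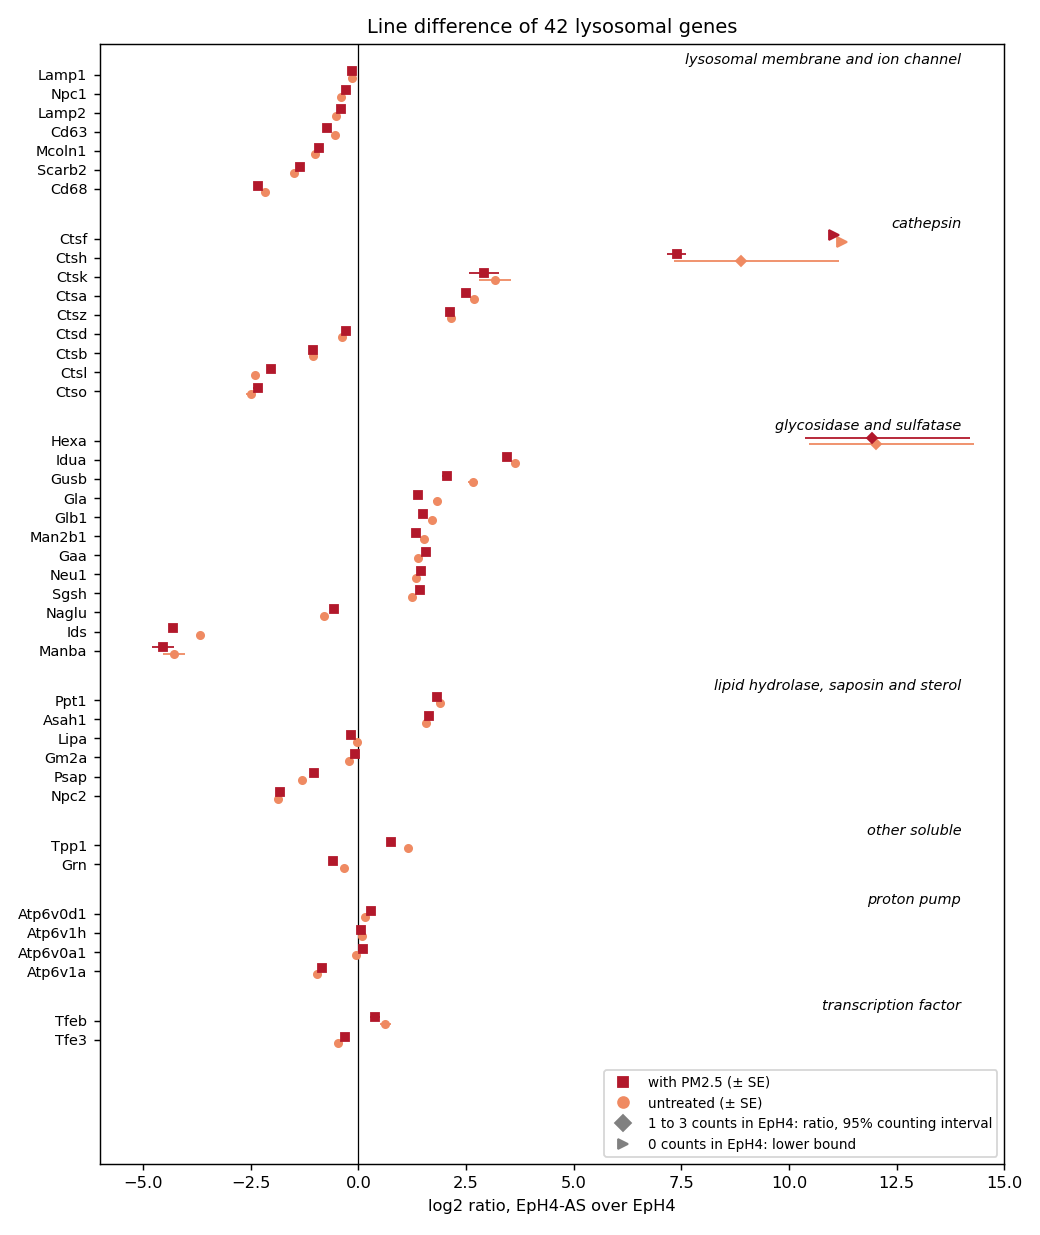
Log2 ratio of EpH4-AS over EpH4 (horizontal axis) for the 42 tested genes by role, with PM2.5 as squares and untreated as circles, each ± standard error. Diamonds are count ratios with 95% counting intervals where EpH4 had 1 to 3 counts, and triangles are lower bounds where it had 0. All membrane proteins lie left of 0, and 9 of 12 glycosidases and sulfatases lie right of it.

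Some of these values share genome space with other genes. Idua overlaps Dgkq, on the opposite strand, over 9342 bases, Ctsa overlaps Pltp over 1515 bases and Ppt1 overlaps Cap1 over 129 bases. The library kit keeps strand, but whether the counting used it is not stated, so reads of such pairs may have been divided otherwise than by gene. The share of reads outside exons also differed between the lines for single members. For Glb1 it was 0.8 to 1.1% in EpH4-AS and 30.3 to 32.3% in EpH4, and for Mcoln1 6.2 to 7.3% in EpH4-AS and 31.1 to 33.0% in EpH4. Over the members with enough reads the median share was 0.99% in EpH4-AS with PM2.5, 0.915% in untreated EpH4-AS, 5.54% in EpH4 with PM2.5 and 5.62% in untreated EpH4. All genes had medians of 2.21%, 2.21%, 14.3% and 13.7% in the same groups, so the members lay below the typical gene in each.

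The second comparison asked what PM2.5 did in EpH4-AS spheroids. Cathepsins L and B, the alpha-galactosidase Gla, Tfe3 and Naglu rose, and Ids and Ctsa fell, all by less than 2-fold. That is 5 genes higher and 2 lower of 42, while 11.1% of all genes were called, 6.39% higher and 4.75% lower, and the libraries of the 2 groups did not overlap for 57.5%. The median log2 fold change was 0.04 for the 42 genes and 0.00 for all genes. Ctsl had the largest rise, at 396 and 381 CPM with PM2.5 and 276 and 268 CPM untreated, a log2 fold change of 0.52 ± 0.08 (adjusted p = 0.000922, edgeR). Ctsb had 382 and 389 CPM with PM2.5 and 315 and 311 CPM untreated (0.30 ± 0.07, adjusted p = 0.0139, edgeR). In both genes the libraries of the groups stood apart. The alpha-galactosidase Gla had 63.3 and 58.9 CPM with PM2.5 and 52.0 and 50.8 CPM untreated (0.25 ± 0.07, adjusted p = 0.0377, edgeR). The transcription factor Tfe3 rose by 0.22 ± 0.06 on the log2 scale (adjusted p = 0.0285) and Naglu by 0.19 ± 0.05 (adjusted p = 0.0384, edgeR).

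Ids, already low in EpH4-AS, fell further to 4.49 and 4.29 CPM with PM2.5, against 6.38 and 6.96 CPM untreated, a log2 fold change of -0.60 ± 0.13 (adjusted p = 0.0086, edgeR). Ctsa had 563 and 632 CPM with PM2.5 and 713 and 730 CPM untreated (-0.27 ± 0.07, adjusted p = 0.0188, edgeR). These were the called falls, and neither gene passed the test in EpH4, where Ids changed by 0.02 ± 0.06 and Ctsa by -0.09 ± 0.07. Of the genes that did not pass, the membrane proteins Lamp1, Lamp2, Mcoln1 and Npc1 changed by 0.04, 0.00, 0.05 and 0.13 on the log2 scale, Ctsd by 0.12, Grn by -0.13 and Tfeb by -0.01. The proton pump subunit Atp6v0a1 lay at the threshold, with 0.22 ± 0.07 and an adjusted p of 0.0503 by edgeR. Over all genes 11.1% were called in EpH4-AS, and 3456 of 13716 had an unadjusted p under 0.05 by edgeR. With TMM and all 8 libraries, edgeR called no membrane protein, lipid-handling protein or proton pump subunit in EpH4-AS. In these roles 0 of 7, 2 of 6 and 2 of 4 had an unadjusted p under 0.05. Other edgeR fits did call some, among them Psap without a filter on low counts (adjusted p = 0.007) and with the 4 EpH4-AS libraries alone (0.00136). Atp6v0a1 was called without a filter (0.0187), without mitochondrially encoded genes (0.0386) and with 4 libraries (0.003), and Lipa (0.0145) and Atp6v0d1 (0.023) were called with 4 libraries.

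The number of calls in EpH4-AS depended on single libraries and on scaling. It was 2 higher and 1 lower without EpH4-AS PM2.5 replicate 1, 1 and 1 without EpH4-AS PM2.5 replicate 2, and 1 and 0 without either untreated EpH4-AS library, where Ctsl was the gene that stayed called. It was 9 higher and 2 lower without untreated EpH4 replicate 1 and 8 and 3 without untreated EpH4 replicate 2. With counts scaled to library totals 2 genes were higher, and of all genes called 43.8% were then higher, against 57.4% with TMM.

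**Figure D4:**
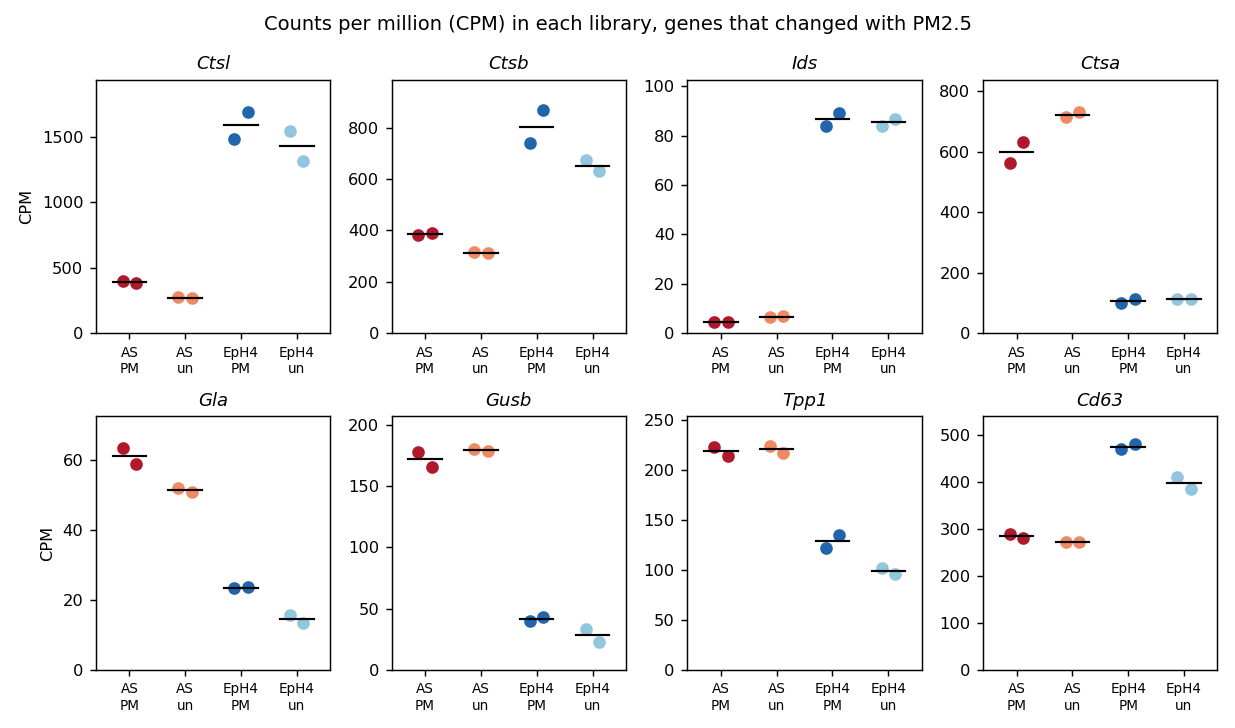
CPM (vertical axis from 0) of 8 genes called with PM2.5 in at least 1 line, in each library, with EpH4-AS with PM2.5 (AS PM), untreated EpH4-AS (AS un), EpH4 with PM2.5 (EpH4 PM) and untreated EpH4 (EpH4 un) from left to right. Points are libraries and bars are means of 2 libraries. Ctsl stands higher with PM2.5 in EpH4-AS while its EpH4 libraries overlap, and Gla, Gusb, Tpp1 and Cd63 stand higher with PM2.5 in EpH4.

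The third comparison asked the same of EpH4 spheroids. Gla, Gusb, Tpp1, Ctsb, Cd63, Cd68 and Ctsz rose with PM2.5 and Ctso fell, so 7 genes were higher and 1 lower of 42. Over all genes 27.2% were called, 14.3% higher and 12.9% lower, and the libraries of the 2 groups did not overlap for 61%. The median log2 fold change was 0.03 for the 42 genes and 0.00 for all genes. Gla had 23.3 and 23.7 CPM with PM2.5 and 15.7 and 13.5 CPM untreated, a log2 fold change of 0.68 ± 0.08 (adjusted p = 5.56e-05, edgeR). Gusb had 39.8 and 43.1 CPM with PM2.5 and 33.4 and 23.0 CPM untreated (0.55 ± 0.12, adjusted p = 0.00319, edgeR), with untreated libraries that were themselves far apart. Tpp1, which removes tripeptides from the ends of proteins, had 123 and 135 CPM with PM2.5 and 102 and 96.0 CPM untreated (0.38 ± 0.06, adjusted p = 0.000382, edgeR). In all 3 genes both PM2.5 libraries lay above both untreated ones.

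Ctsb had 740 and 870 CPM in EpH4 with PM2.5 and 675 and 631 CPM untreated (0.30 ± 0.07, adjusted p = 0.00472, edgeR). Cd63, a tetraspanin of late endosomes and of secreted vesicles, had 470 and 480 CPM with PM2.5 and 410 and 384 CPM untreated (0.26 ± 0.05, adjusted p = 0.00196, edgeR). Cd68 rose by 0.25 ± 0.06 (adjusted p = 0.0109) and Ctsz by 0.17 ± 0.05 (adjusted p = 0.0349) on the log2 scale, and Ctso fell to 31.6 and 32.5 CPM with PM2.5, against 40.2 and 35.7 CPM untreated (-0.24 ± 0.08, adjusted p = 0.0338, edgeR). Beside the Cd68 rise, 1 of the 4 macrophage markers tested was called, Mpeg1, higher with PM2.5 by 1.43 ± 0.36 on the log2 scale (adjusted p = 0.00932, edgeR). Over all genes 27.2% were called with PM2.5 in EpH4, and the libraries of the 2 groups did not overlap for 61%. Adgre1 (0.83) and Lyz2 (0.35) had groups that did not overlap but did not pass, and Cd14 (0.13) overlapped. The part of these markers in the Cd68 rise was not tested. Not past the threshold were Ctsl (0.15 ± 0.08, adjusted p = 0.166), Grn (0.11), Lamp1 (0.03), Lamp2 (-0.13), Mcoln1 (-0.05), Npc1 (0.00), Ctsd (0.03), Tfe3 (0.04) and Tfeb (0.23) on the log2 scale.

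Gla, Gusb, Tpp1 and Cd63 were called in EpH4 under every alternative fit, and Ctsb, Cd68, Ctsz and Ctso were lost in at least 1. The counts of higher and lower genes were 9 and 0 without EpH4 PM2.5 replicate 1, 4 and 0 without EpH4 PM2.5 replicate 2, 10 and 0 without untreated EpH4 replicate 1, and 6 and 2 without untreated EpH4 replicate 2. Mitochondrially encoded genes took 4.23 and 5.03% of counts in EpH4 with PM2.5 and 2.72 and 2.21% in untreated EpH4, and with those genes left out of the fit no lysosomal gene called in EpH4 lost its call.

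Across both lines, Ctsb and Gla were the genes called higher with PM2.5 in each. In EpH4-AS neither call held in every alternative fit, and Ctsl alone did. The calls of Ctsb and Gla were lost when any EpH4-AS library was left out. The log2 fold changes were then 0.298 to 0.330 for Ctsb and 0.215 to 0.313 for Gla. Gla was also lost with library totals (adjusted p = 0.0642, edgeR) and with the DESeq2 Wald test (adjusted p = 0.138). Ctsl, Naglu and Tfe3 were called higher in EpH4-AS alone, and Ctsa and Ids lower in EpH4-AS alone. Cd63, Cd68, Ctsz, Gusb and Tpp1 were called higher in EpH4 alone and Ctso lower in EpH4 alone, and 29 of 42 were called in neither. Over all genes 11.1% were called in EpH4-AS and 27.2% in EpH4. Calls in both lines, in 1 alone or in neither were not counted over all genes. A call in 1 line does not show that the lines differ, which the interaction of line and PM2.5 tests.

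**Figure D5:**
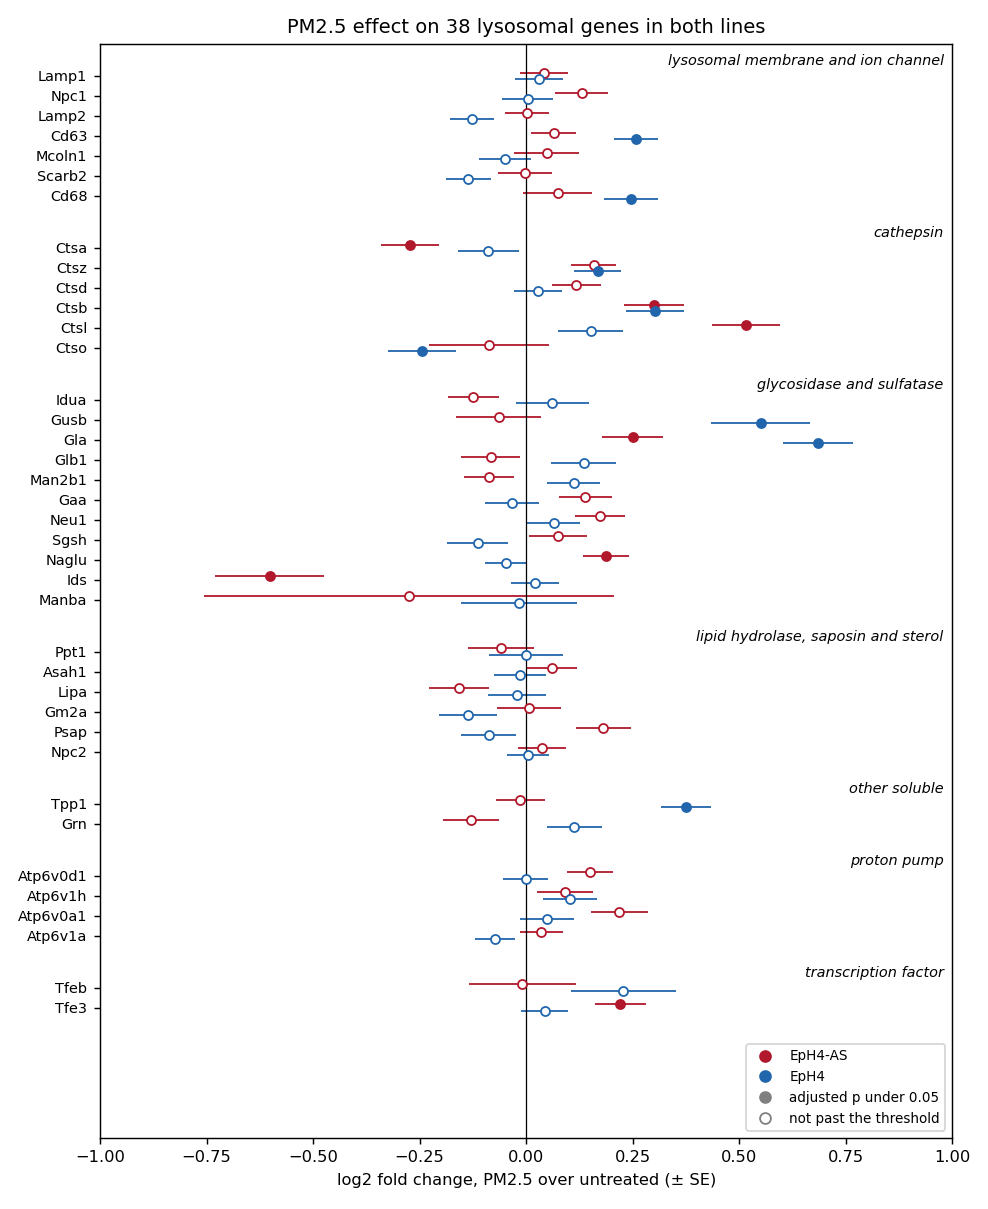
Log2 fold change of PM2.5 over untreated (horizontal axis, ± standard error) in EpH4-AS and in EpH4 for 38 genes by role, leaving out the 4 tested genes with mean counts under 10 in EpH4. Filled points passed an adjusted p of 0.05 and open points did not. Ctsl and Ids in EpH4-AS and Gla, Gusb and Tpp1 in EpH4 lie farthest from 0 among the filled points.

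The interaction, the PM2.5 effect in EpH4-AS minus that in EpH4, was called for 6 of 42 genes, 2 higher and 4 lower, where 14.1% of all genes were called, 7.6% higher and 6.49% lower. Tpp1 differed by -0.39 ± 0.08 (adjusted p = 0.00606), with a PM2.5 effect of -0.01 in EpH4-AS and 0.38 in EpH4. Ids differed by -0.62 ± 0.14 (adjusted p = 0.00919) and Gusb by -0.61 ± 0.15 (adjusted p = 0.016), with Gusb effects of -0.06 in EpH4-AS and 0.55 in EpH4. For Gla, which rose in both lines, the rise was smaller in EpH4-AS, by -0.43 ± 0.11 (adjusted p = 0.0168, edgeR). Ctsl (0.36 ± 0.11, adjusted p = 0.0403) and Naglu (0.23 ± 0.07, adjusted p = 0.0469) had the larger effect in EpH4-AS. For Ctsb, called in both lines with nearly equal size, the difference was -0.00207 ± 0.0976.

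None of the 6 interaction calls held under every alternative. The call of Tpp1 was lost without untreated EpH4-AS replicate 1 alone (adjusted p = 0.0678). Counts of higher and lower genes were 0 and 4 without EpH4-AS PM2.5 replicate 1, 1 and 1 without EpH4-AS PM2.5 replicate 2, 0 and 1 without either untreated EpH4-AS library, 0 and 6 without EpH4 PM2.5 replicate 1 and 1 and 9 without untreated EpH4 replicate 1. With library totals the 2 higher calls were lost, and 43.2% of all genes called were higher, against 53.9% with TMM.

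Further lists of lysosomal genes are given by their counts, to be read against the shares of all genes called, which were 89.2% between untreated lines, 11.1% with PM2.5 in EpH4-AS and 27.2% with PM2.5 in EpH4. Of 28 further hydrolases tested, 17 were higher in untreated EpH4-AS and 10 lower. Aga, which cleaves the sugar link to asparagine, was higher by 4.47 ± 0.07 on the log2 scale. Dpp7, a dipeptidyl peptidase, was higher by 5.34 ± 0.09 on the log2 scale and the hyaluronidase Hyal1 was lower by -5.53 ± 0.13 in untreated EpH4-AS. With PM2.5, 4 of the 28 rose and none fell in EpH4-AS, and 2 rose and 4 fell in EpH4. The lysosomal ribonuclease Rnaset2b had 373 and 369 CPM in EpH4-AS with PM2.5 and 218 and 221 CPM in untreated EpH4-AS (0.76 ± 0.08, adjusted p = 2.99e-05, edgeR), and its near-identical copy Rnaset2a rose by 0.74, so their reads may be shared. Scpep1, a serine carboxypeptidase, fell in EpH4 (-0.43 ± 0.06, adjusted p = 9.15e-05, edgeR).

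Against the same shares, of 27 further membrane proteins and transporters, 9 were higher and 13 lower in untreated EpH4-AS. With PM2.5, 2 rose and 2 fell in EpH4-AS, and 8 rose and 3 fell in EpH4. Slc11a1, an ion transporter of phagolysosomes, rose in both lines at low levels, with 1.98 and 1.63 CPM in EpH4-AS with PM2.5 and 0.963 and 0.506 CPM in untreated EpH4-AS, and 3.16 and 3.78 CPM in EpH4 with PM2.5 and 1.31 and 1.03 CPM in untreated EpH4. Of 19 other subunits and assembly factors of the proton pump, 8 were higher and 9 lower in untreated EpH4-AS. PM2.5 raised 4 and lowered 1 of them in EpH4-AS, and raised 1 and lowered 2 in EpH4, where Tcirg1, a membrane subunit known from osteoclasts, had 95.7 and 101 CPM with PM2.5 and 70.1 and 66.8 CPM untreated (0.52 ± 0.05, adjusted p = 1.91e-05, edgeR). Atp6v1b2 and Atp6v1g1, subunits of the cytosolic part, rose in EpH4-AS by 0.28 ± 0.06 and 0.24 ± 0.06 on the log2 scale.

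Read against the same 89.2%, 11.1% and 27.2% of all genes called, the machinery that tags and sorts lysosomal enzymes had mixed calls, and 10 of 20 genes were higher and 4 lower in untreated EpH4-AS. Sort1, a sorting receptor, had 155 and 140 CPM in EpH4-AS with PM2.5 and 153 and 148 CPM in untreated EpH4-AS, against 1.79 and 2.30 CPM in EpH4 with PM2.5 and 2.11 and 1.59 CPM in untreated EpH4. Gnptab, the transferase that starts the mannose 6-phosphate tag, was also higher (2.33 ± 0.07). With PM2.5, 2 genes of this list fell in EpH4-AS, and 2 rose and 5 fell in EpH4, where the mannose 6-phosphate receptor Igf2r rose by 0.45 ± 0.06 (adjusted p = 0.000149, edgeR). Of 25 regulators of TFEB and TFE3, 14 were higher and 10 lower in untreated EpH4-AS. Rragb, a RAG GTPase that recruits mTORC1 to lysosomes, had 48.4 and 50.9 CPM in EpH4-AS with PM2.5 and 54.1 and 54.8 CPM in untreated EpH4-AS and no count in EpH4. It passed the filter through EpH4-AS alone, so it had to be higher. Mtor differed by 2.02 ± 0.06 and Rptor by 1.59 ± 0.05 on the log2 scale. PM2.5 lowered 2 of these regulators and raised none in EpH4-AS, and raised 4 and lowered 6 in EpH4.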

How the data were processed

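RNA of 8 libraries was sequenced with a kit that keeps strand, per the labels' protocols. The authors deposited whole-number counts per gene, which were used as they stood, and RPKM, counts per exon length and library size as the deposited tables give them. The build was GRCm39, per the submitters' processing notes. No aligner, counter or annotation is named in the sources used here. The authors also deposited a count of reads over the whole gene, introns included.

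Counts were filtered with filterByExpr (13716 of 25413 genes kept), scaled by TMM, then tested by the quasi-likelihood method of edgeR 4.0.16 (R 4.3.3), with 1 model for the 4 groups and 4 residual degrees of freedom. Groups came from the labels. Each of 5 contrasts was tested two-sided with Benjamini-Hochberg adjustment over all genes at 0.05. Standard errors are absolute log2 fold changes divided by the root of F. CPM is TMM-normalised. Total counts ran from 15393256 to 27765982 per library. The fit was tested on simulated data. For a group with 0 counts the floor is 3 counts over the group, and 1 to 3 counts give a ratio with an exact 95% counting interval.

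Named were, per contrast, the 6 largest rises and 6 largest falls among called genes with groups that did not overlap, the 6 smallest interaction p values, 10 genes always, and up to 4 genes of each further list by adjusted p; other members were added to account for each role. The members and lists were chosen with earlier results of these data known. Alternatives were DESeq2 size factors, library totals, DESeq2 1.42.0, no filter, a filter of 1 CPM in 2 libraries, a replicate block, 4 libraries, no mitochondrially encoded genes, and leaving out each library. When a library was left out, the single library left in that group was taken to vary as the other groups do.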

Additional observations from a re-analysis of the deposited data

Results flagged for a closer look

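For 6 genes the effect of PM2.5 differed between the lines by the interaction test of edgeR, which is the reason they are listed. The values are the log2 effect in EpH4-AS minus that in EpH4. Tpp1 differed by -0.39, Ids by -0.62, Gusb by -0.61 and Gla by -0.43, each with the smaller or more negative effect in EpH4-AS. Ctsl differed by 0.36 and Naglu by 0.23, with the larger effect in EpH4-AS. Per library, Ctsl lay at 396 and 381 CPM in EpH4-AS with PM2.5 and 276 and 268 CPM in untreated EpH4-AS, and at 1487 and 1692 CPM in EpH4 with PM2.5 and 1546 and 1316 CPM in untreated EpH4. Naglu lay at 109 and 102 CPM in EpH4-AS with PM2.5 and 92.6 and 92.1 CPM in untreated EpH4-AS, and at 153 and 156 CPM in EpH4 with PM2.5 and 160 and 159 CPM in untreated EpH4.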

How the results depend on the processing

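With 2 libraries per group, small changes had little support, and no named value that passed the test in either fit changed direction under any alternative run. Some values near 0 that did not pass did turn, such as Lamp1 in EpH4 without EpH4 PM2.5 replicate 2, Lamp2 in EpH4-AS with library totals and Tfeb in EpH4-AS without mitochondrially encoded genes. Counts of members between the lines stayed within 1.5 times, at 18 to 20 higher and 18 to 21 lower when each library was left out in turn. For PM2.5 in EpH4-AS, 5 genes were higher and 2 lower. The higher count was 2 with library totals, 8 without a filter, 2 with DESeq2 and 12 with 4 libraries, where 4 were lower, and leaving out libraries gave 1 to 9 higher and 0 to 3 lower. For PM2.5 in EpH4, 7 were higher and 1 lower. With 4 libraries 4 were higher and 0 lower, with DESeq2 0 were lower, without a filter 2 were lower, and leaving out libraries gave 4 to 10 higher and 0 to 2 lower. For the interaction, 2 were higher and 4 lower. DESeq2 size factors gave 1 higher, library totals 0, and leaving out libraries 0 to 2 higher and 1 to 9 lower. The cause was not tested.

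Replicate numbers did not pair the samples, since deviations of same-numbered libraries correlated across genes with r from -0.101 to 0.0646. With the replicate number as a block, 4 members were higher and 2 lower in EpH4-AS, 6 and 1 in EpH4, and 0 and 4 for the interaction. Naglu in EpH4-AS, Ctsz in EpH4 and the interactions of Ctsl and Naglu lost their calls. A crossed pairing in EpH4, chosen after seeing the data, left 7 higher and 1 lower. Over all genes, calls in EpH4-AS numbered 1529, against 2995 with 4 libraries and 363 to 695 without 1 of its own libraries, in EpH4 3726, against 2330 with DESeq2, and for the interaction 1932, against 875 to 1246 without 1 EpH4-AS library. In EpH4, 2145 genes were called without EpH4 PM2.5 replicate 2 and 2451 without untreated EpH4 replicate 2. Levels per exon length were not recomputed, since no exon length was used here.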

Other observations

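Of 29 autophagosome genes, which serve the delivery of cargo to lysosomes, 2 rose and 1 fell with PM2.5 in EpH4-AS, where 11.1% of all genes were called, and 2 rose and 12 fell in EpH4, where 27.2% were called. By the interaction 9 were higher, 1 was lower and 19 did not pass, where 14.1% of all genes were called. Map1lc3b, which encodes a protein that coats autophagosomes, had 37.7 and 33.8 CPM in EpH4-AS with PM2.5 and 28.9 and 27.5 CPM in untreated EpH4-AS, and 168 and 164 CPM in EpH4 with PM2.5 and 241 and 253 CPM in untreated EpH4. Its log2 fold change was 0.34 ± 0.07 in EpH4-AS (adjusted p = 0.00883) and -0.57 ± 0.05 in EpH4 (adjusted p = 8.55e-06), and the interaction was 0.91 ± 0.09 (adjusted p = 4.45e-05, edgeR). Atg9b, a lipid scramblase of the same pathway, rose in EpH4 by 0.98 ± 0.09 on the log2 scale.

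Gpnmb, a membrane glycoprotein known to rise in cells with lysosomal stress, rose with PM2.5 in both lines. It had 50.1 and 50.1 CPM in EpH4-AS with PM2.5 and 28.7 and 30.2 CPM in untreated EpH4-AS (0.77 ± 0.08, adjusted p = 2.44e-05, edgeR). In EpH4 it had 497 and 560 CPM with PM2.5 and 380 and 366 CPM untreated (0.50 ± 0.06, adjusted p = 3.76e-05, edgeR). Of 18 genes of the lysosomal damage response, 3 rose and 1 fell in EpH4-AS, where 11.1% of all genes were called, and 6 rose and 3 fell in EpH4, where 27.2% were called. Of 13 listed cathepsin inhibitors 5 passed the filter, and these 5 were lower in untreated EpH4-AS, where 45.7% of all genes were called lower. Among them Csta2 had 0 counts in EpH4-AS and passed through EpH4 alone, so it had to be lower. Cst3, cystatin C, was at 4.03 and 5.81 CPM in EpH4-AS with PM2.5 and 4.997 and 5.44 CPM in untreated EpH4-AS, against 195 and 222 CPM in EpH4 with PM2.5 and 256 and 237 CPM in untreated EpH4.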
